A study of Mus musculus with 2 samples.

Results

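The genes described here are Ncam1 and Ncam2, which encode neural cell adhesion molecules, and St8sia1 to St8sia6, which encode the 6 alpha-2,8-sialyltransferases. They are 8 of the 23236 rows of the deposited table of all genes and were taken by symbol. They were chosen by their KO and WT FPKM values in these same libraries, so every difference between the genotypes below is a description and not a test. Each gene had 1 row, and none was at the lowest listed value in either library.

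The values come from 1 polyA RNA-seq library of Pax7 KO cells and 1 of WT cells, labelled as activated satellite cells (muscle stem cells) of neonatal mice and grown as primary myoblasts in serum-rich medium with bFGF. The KO mice carried floxed Pax7 alleles and a tamoxifen-inducible Cre driven by the Pax7 gene itself (Pax7CreER/+). Per the labels' protocols, tamoxifen was given at 75 µg per g of body weight from day 5 on 5 consecutive days, and the sources used here do not say whether the WT mice carried the Cre or were given tamoxifen. The cultures were enriched by differential sedimentation, with no sort on a surface marker given, and the number of mice behind each library is not stated either. With 1 library per genotype there is no spread between replicates, no test between the genotypes was possible, and no p-value is given.

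NCAM is a cell surface protein of the immunoglobulin superfamily that holds cells together by binding to NCAM on the neighbouring cell, and on developing and regenerating muscle it is carried by myoblasts and young myotubes. Its N-glycans can be extended with polysialic acid, a long chain of negatively charged sugars that keeps membranes apart and weakens adhesion. The chain is built in the Golgi by St8sia2 (STX) and St8sia4 (PST), either of which can make it alone. The other members of the family make shorter products: St8sia1 is the GD3 ganglioside synthase, St8sia5 acts on gangliosides, St8sia3 makes short sialic acid chains, and St8sia6 acts mainly on O-linked glycans.

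The polysialyltransferase transcripts differed in opposite directions between the libraries. St8sia2 stood at 1.06 FPKM in KO and 5.20 FPKM in WT (FPKM is a fragment count scaled for transcript length and library size), which is 4.92-fold lower in KO. St8sia4 stood at 4.82 FPKM in KO and 2.32 FPKM in WT, 2.08-fold higher in KO. Ncam1, the main carrier of polysialic acid, was at 7.01 FPKM in KO and 8.26 FPKM in WT. As deposited, Ncam1 was thus 1.18-fold lower in KO, a smaller difference than that of either enzyme. After centring on the median gene, whose log2 ratio was 0.42, Ncam1 stood farther from it (-0.63) than St8sia4 did (0.39). Marker transcripts of other cell types were present beside those of myoblasts, and which cells held them was not tested. Fewer cells of a type and less RNA per cell cannot be told apart in these values.

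The windows before the start sites of St8sia2 and St8sia4 are shown because these transcripts differed in opposite directions. Each is the 250 bases before the RefSeq start on GRCm38.p6 (not the build of the deposited table), on the minus strand, and capitals mark an E-box, CANNTG, the core bound by Myod1, Myf5 and other basic helix-loop-helix factors.
St8sia2, chr7:74013683-74013932: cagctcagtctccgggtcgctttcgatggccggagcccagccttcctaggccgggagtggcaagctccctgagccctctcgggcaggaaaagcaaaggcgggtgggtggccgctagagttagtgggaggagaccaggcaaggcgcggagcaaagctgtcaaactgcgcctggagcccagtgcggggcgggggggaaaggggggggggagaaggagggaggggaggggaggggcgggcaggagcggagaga
St8sia4, chr1:95667595-95667844: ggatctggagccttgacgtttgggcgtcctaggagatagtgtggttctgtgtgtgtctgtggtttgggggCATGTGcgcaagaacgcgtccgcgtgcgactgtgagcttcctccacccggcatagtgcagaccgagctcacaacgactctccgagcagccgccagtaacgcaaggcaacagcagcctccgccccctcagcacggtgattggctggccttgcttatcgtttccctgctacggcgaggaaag

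The St8sia2 window held 0 E-boxes and the St8sia4 window 1, CATGTG, from 180 to 175 bases before the start. Of 32536 distinct windows of the same length, 66.2% held at least 1 E-box, which reads the same on both strands. Neither window held the homeobox core TAATTA (4.84% of windows, the same on both strands) or the paired-domain core GTCACGC on either strand (1.79% of windows). The St8sia2 window was 68.8% G and C and the St8sia4 window 60.4%. These matches describe letters in a short window and say nothing of binding in these cells. RefSeq windows were found for 5 of the 8 genes.

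The check of the labels was Pax7, which stood at 0.769 FPKM in KO and 3.21 FPKM in WT. The value covers the whole gene and does not resolve the deleted part. Pax7 was 4.17-fold lower in KO. Of the untargeted myoblast markers, Myod1 (5.04-fold) and Myf5 (9.34-fold) differed by more and Cdh15 (2.85-fold) by less. The Pax7 value alone thus does not show the deletion. The whole KO column ran higher: its listed FPKM summed to 405217, against 289269 in WT, a ratio of 1.40. The log2 ratio used below is log2((KO FPKM + 1) / (WT FPKM + 1)), and its median was 0.42 over the 11751 genes that averaged at least 1 FPKM in the libraries. Values are therefore given as deposited and relative to the median gene (0.42 subtracted). Markers of other cell types were present. Endothelial markers (9 of 9 with a mean of at least 1 FPKM) summed to 887 FPKM in KO and 448 FPKM in WT, Schwann and glial markers (11 of 12) to 195 FPKM in KO and 129 FPKM in WT, and adipocyte markers (7 of 7) to 1117 FPKM in KO and 217 FPKM in WT. The 14 satellite cell and myoblast markers summed to 224 FPKM in KO and 344 FPKM in WT, with Chodl at the lowest listed value in KO.

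**Figure D1:**
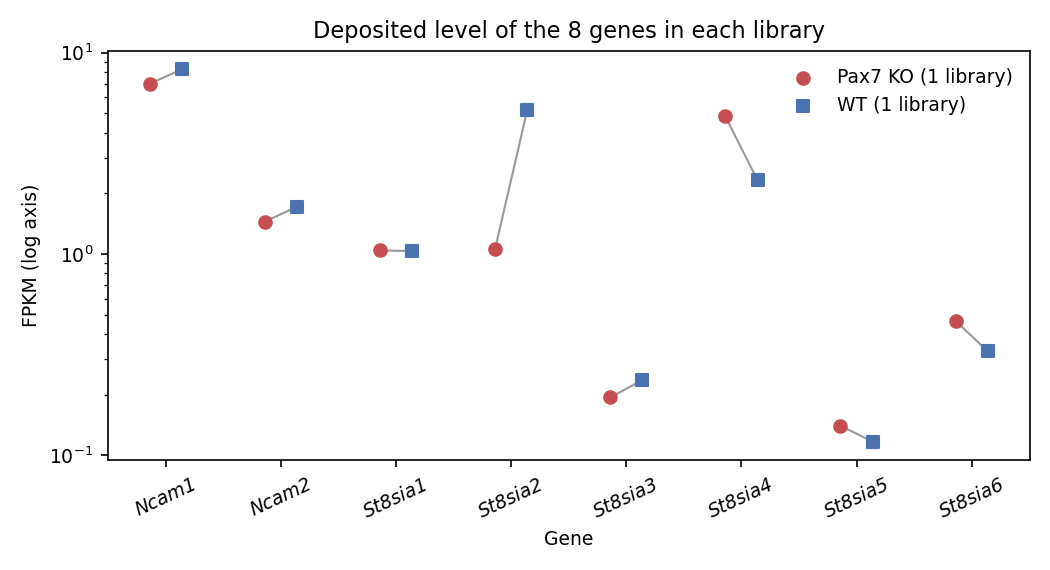
Deposited FPKM (log axis) of the 8 genes, with 1 point per library (red circles Pax7 KO, blue squares WT) joined by a line. St8sia2 was at 1.06 FPKM in KO and 5.20 in WT, St8sia4 at 4.82 in KO and 2.32 in WT, and the points of Ncam1, Ncam2 and St8sia1 lay close together.

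St8sia2 (chromosome 7, 81084006 to 81158568, mm9) was the member that differed most. Its log2 ratio was -1.59 as deposited and -2.01 relative to the median gene. Without a pseudocount the log2 ratio was -2.30, and its 95% exact counting interval ran from -2.59 to -2.02, on about 122 fragments in KO and 718 in WT. Such intervals are approximate, because fragments were estimated from the FPKM. The interval covers counting error only and not variation between cultures or animals. As deposited, 46 of the 11751 genes had as low a ratio or a lower one. By level the gene stood at rank 11855 of 23235 in KO and at rank 6279 in WT. The authors' deposited table of lower genes lists it with a fold of 0.203.

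St8sia4 (chromosome 1, 97484259 to 97564171) had a log2 ratio of 0.81 as deposited and 0.39 relative to the median gene. Without a pseudocount it was 1.06, with a counting interval of 0.85 to 1.26, and the median gene on that scale was at 0.50. The interval rests on about 558 fragments in KO and 322 in WT, counted on the shorter of the gene's 2 annotated transcripts (GENCODE M21), the choice that gives the wider interval. As deposited, 1449 of the 11751 genes, St8sia4 included, had a ratio as high or higher. The gene stood at rank 7793 of 23235 in KO and at rank 9043 in WT. It is in neither list of the authors' deposited table. Of 449 genes with a mean of at least 1 FPKM and a KO value between 2.0 and 2.2 times that of WT, 73 are in the authors' higher list.

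The ratio of St8sia4 to St8sia2 within a library does not depend on how a column was scaled. It was 4.55 in KO and 0.446 in WT, a 10.2-fold difference with an exact counting interval of 8.01 to 13.0. St8sia4 made up 82.0% of the summed FPKM of these transcripts in KO and 30.8% in WT. Their sum was 5.88 FPKM in KO and 7.53 FPKM in WT. The more abundant polysialyltransferase transcript was therefore St8sia4 in the KO library and St8sia2 in the WT library. Across all 6 St8sia genes, St8sia4 held 62.4% of the summed FPKM in KO and 25.1% in WT, while St8sia2 held 13.7% in KO and 56.3% in WT.

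**Figure D2:**
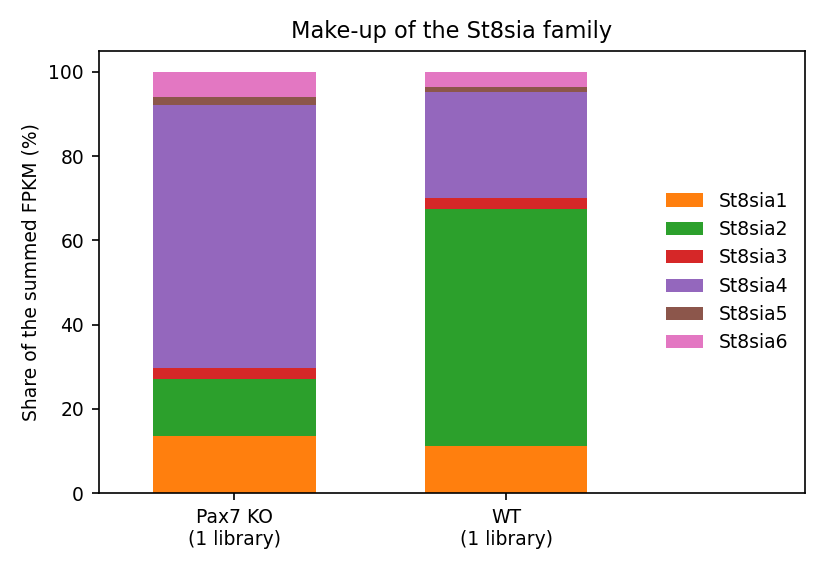
Share of each gene in the summed FPKM of the 6 St8sia genes (percent), in the Pax7 KO library (left) and the WT library (right), without error bars because each bar is 1 library. St8sia4 took 62.4% of the KO bar and St8sia2 56.3% of the WT bar.

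Ncam1 (chromosome 9, 49310251 to 49607174) was the most abundant of the 8 genes in each library, at 7.01 FPKM in KO and 8.26 FPKM in WT. Its log2 ratio was -0.21 as deposited and -0.63 relative to the median gene. Without a pseudocount it was -0.24, and the counting interval ran from -0.43 to -0.04 on the shortest of 4 annotated transcripts, from about 380 fragments in KO and 536 in WT. It stood at rank 6440 of 23235 in KO and at rank 4687 in WT. The table gives 1 value per gene, so the transmembrane and the lipid-anchored forms of NCAM were not resolved. A predicted gene, Gm11149, has the same locus entry, at 0.336 FPKM in KO and 0.437 FPKM in WT.

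Ncam2 (chromosome 16, 81200942 to 81624532), a relative best known from olfactory neurons, was at 1.45 FPKM in KO and 1.72 FPKM in WT. Its log2 ratio was -0.15 as deposited and -0.57 relative to the median gene, and the counting interval without a pseudocount ran from -0.56 to 0.06. The ratio of Ncam1 to Ncam2 was 4.84 in KO and 4.81 in WT. The proportion of the NCAM genes to each other was thus nearly the same in both libraries, while St8sia2 per Ncam1 was 0.151 in KO and 0.630 in WT. St8sia4 per Ncam1 was 0.688 in KO and 0.281 in WT.

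St8sia1 (chromosome 6, 142762751 to 142912972), the GD3 synthase, was at 1.04 FPKM in KO and 1.03 FPKM in WT. Its log2 ratio was 0.01 as deposited and -0.42 relative to the median gene, and its direction depends on the scaling. The counting interval without a pseudocount was -0.27 to 0.29. The predicted gene Gm7457 has the same locus entry, at 0.263 FPKM in KO and 0.141 FPKM in WT.

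The remaining members were under a mean of 1 FPKM. St8sia6 (chromosome 2, 13576565 to 13715147) was at 0.466 FPKM in KO and 0.328 FPKM in WT, with a log2 ratio of 0.14 as deposited and -0.28 relative to the median gene. Without a pseudocount its ratio was 0.51, beside 0.50 for the median gene, with a counting interval of 0.01 to 1.01 from about 76 fragments in KO and 64 in WT. St8sia3, on chromosome 18, was at 0.194 FPKM in KO and 0.236 FPKM in WT, from about 14 fragments in KO and 20 in WT on its shorter transcript. St8sia5, also on chromosome 18, was at 0.140 FPKM in KO and 0.117 FPKM in WT, about 6 fragments in each. Counted on the shorter transcript, the interval of St8sia3, -1.35 to 0.80, included a 2-fold lower value. That of St8sia5, -1.64 to 2.16, included 2-fold in both directions. On the longer transcript the intervals ran from -0.88 to 0.33 for St8sia3 and from -0.83 to 1.36 for St8sia5. A 2-fold difference was thus not excluded in the directions that the intervals reach, which depend on the transcript. The 1700091E21Rik row has the locus entry of St8sia3 and was at 0.001 FPKM in KO and 0.0635 FPKM in WT.

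**Figure D3:**
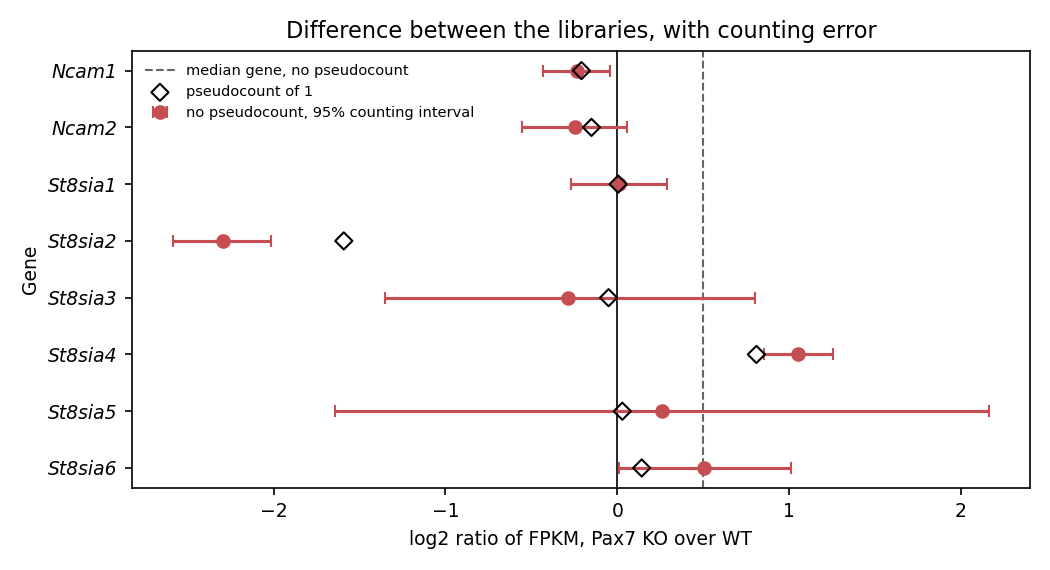
Log2 ratio of FPKM, Pax7 KO over WT, for each gene: filled red circles without a pseudocount with 95% exact counting intervals, open diamonds with a pseudocount of 1. The dashed line is the median gene without a pseudocount (0.50); St8sia2 lies below 0 with its interval and St8sia4 above the dashed line with its interval.

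Counted over all 8 genes, 1 was at least 2-fold lower in KO as deposited (St8sia2), against 0.689% of the 11751 genes, and 0 were at least 2-fold higher, against 5.06%. Relative to the median gene, St8sia2 again was the 1 gene past that limit downwards, against 1.45% of genes, and 0 passed it upwards, against 1.35%. Without the pseudocount St8sia4 also passed 2-fold upwards, as did 10.2% of genes, and St8sia2 was the 1 member past 2-fold downwards, as were 1.00% of genes; after centring on the median gene these counts were 0 upwards, against 2.68%, and 1 downwards, against 2.88%. At a 1.5-fold limit, St8sia4 counted as higher, as did 30.0% of genes, and St8sia2 as lower, as did 1.43%. Relative to the median gene that limit was passed by St8sia2 and Ncam1 downwards, as by 6.20% of genes, and by 0 members upwards, against 4.94%. As deposited, 4 members were lower in KO and 4 higher, where 88.6% of the 11751 genes were higher. Relative to the median gene 7 were lower and 1, St8sia4, was higher, where the median splits all genes evenly by definition. For the 3 members under a mean of 1 FPKM, the pseudocount holds the ratio near 0 and so below the median gene. Without a pseudocount St8sia6 was level with the median gene, at 0.004 relative to it. St8sia3 and St8sia5 were still below it, at -0.79 and -0.24, on few fragments. These counts used the values by which the members were chosen. Of the 8, 5 had a mean of at least 1 FPKM.

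**Figure D4:**
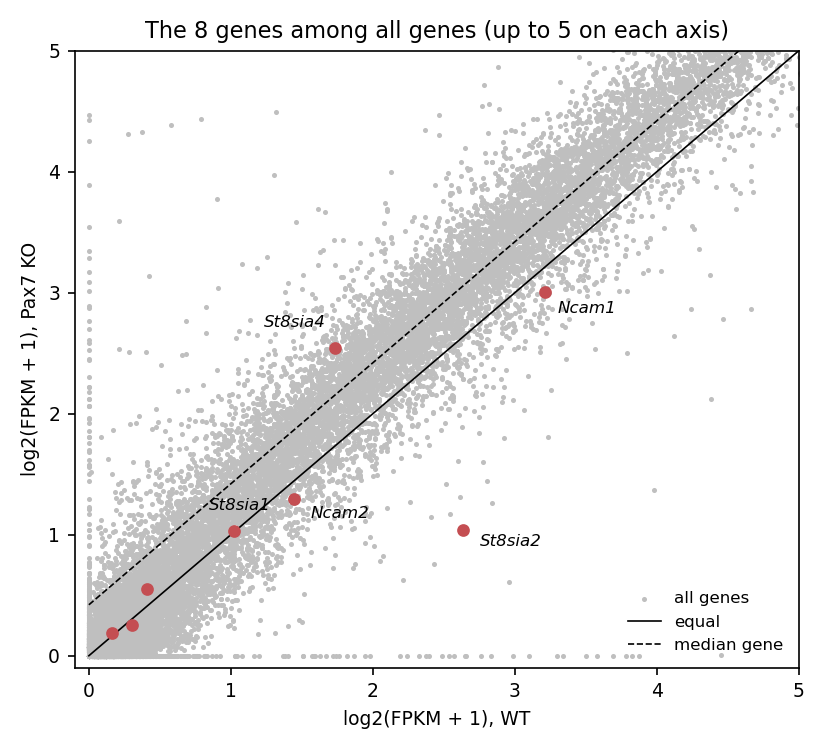
Log2(FPKM + 1) of all genes in WT (horizontal) and Pax7 KO (vertical), shown up to 5 on each axis, with the 8 genes in red and the 5 with a mean of at least 1 FPKM named. The solid line marks equal values and the dashed line the median gene; St8sia2 lies apart from the cloud below the solid line, and St8sia4 just above the dashed line.

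Beside St8sia2, most markers of the myoblast lineage were lower in KO. Myod1, which commits cells to the muscle lineage, was at 17.9 FPKM in KO and 90.4 FPKM in WT, and Myf5, the other early factor, at 1.58 FPKM in KO and 14.8 FPKM in WT. Of the 10 satellite cell and myoblast markers with a mean of at least 1 FPKM, 5 were at least 2-fold lower, the targeted Pax7 among them, where 0.689% of all genes were, and 0 were 2-fold higher. Sdc4 and Megf10 were slightly higher as deposited, with log2 ratios of 0.15 and 0.14, and lower relative to the median gene. The list's median log2 ratio was -0.81, beside 0.42 over all genes. Per unit of Myod1, St8sia2 was 0.0590 in KO and 0.0576 in WT, a ratio of 1.02. Per unit of Cdh15 (M-cadherin) it was 0.168 in KO and 0.290 in WT, and per unit of Des (desmin) 0.0157 in KO and 0.0687 in WT. St8sia2 thus differed by nearly the same factor as Myod1 and by a larger factor than Cdh15 and Des. Myf5 and Fgfr4 of the same list differed by larger factors than the 4.92-fold of St8sia2, being 9.34-fold and 12.9-fold lower in KO. These genes were chosen for the comparison after their values were seen, and the part of fewer myoblasts in the St8sia2 value was not tested.

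Ncam1 differed less between the libraries than Myod1 or Cdh15. Per unit of Des it was 0.104 in KO and 0.109 in WT, and per unit of Cdh15 it was 1.12 in KO and 0.460 in WT. Des itself was at 67.6 FPKM in KO and 75.8 FPKM in WT, and whether it stands for myoblasts alone in these cultures was not tested. Ncam1 is also a gene of Schwann cells, and 11 of 12 Schwann and glial markers had a mean of at least 1 FPKM, with none at the lowest listed value. Their median log2 ratio was 0.53, and Sox10, the defining transcription factor, was at 17.4 FPKM in KO and 12.5 FPKM in WT. Per unit of Sox10, Ncam1 was 0.404 in KO and 0.663 in WT. Of 13 neuronal markers 3 had a mean of at least 1 FPKM, among them Tubb3, a tubulin that is not confined to neurons in culture, at 43.7 FPKM in KO and 28.9 FPKM in WT. The part of Schwann cells in the Ncam1 value was not tested.

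Beside St8sia4, all 9 endothelial markers were higher in KO as deposited, as were 88.6% of all genes. Their median log2 ratio was 0.83, beside 0.42 over all genes. Of them, 4 were at least 2-fold higher as deposited, where 5.06% of all genes were, and 1 relative to the median gene, where 1.35% were. Pecam1, an endothelial junction gene, was at 185 FPKM in KO and 107 FPKM in WT. For the list of fibroblasts and fibro-adipogenic progenitors the median was 0.72, with Pdgfra, a defining receptor, at 5.09 FPKM in KO and 2.74 FPKM in WT. Smooth muscle and pericyte markers had a median of 0.45. With the pseudocount of 1, 2 of 9 passed 2-fold upwards as deposited, or 1 of 9 relative to the median gene. Acta2, smooth muscle actin, was at 642 FPKM in KO and 626 FPKM in WT. Pericyte genes of that list varied. Kcnj8, a potassium channel, was at 21.1 FPKM in KO and 4.53 FPKM in WT, and Rgs5 at 16.5 FPKM in KO and 6.61 FPKM in WT. Pdgfrb was at 50.9 FPKM in KO and 29.2 FPKM in WT. Cspg4 was at 8.71 FPKM in KO and 6.12 FPKM in WT, a log2 ratio of 0.03 relative to the median gene. St8sia4 is also known from leukocytes. Their markers were scarce: of 9 found, 1 had a mean of at least 1 FPKM, and Ptprc (CD45) was at 0.226 FPKM in KO and 0.318 FPKM in WT. Per unit of Pecam1, St8sia4 was 0.0260 in KO and 0.0218 in WT, per unit of Pdgfrb 0.0947 in KO and 0.0794 in WT, and per unit of Sox10 it was 0.278 in KO and 0.186 in WT. Other markers differed by more than the 2.08-fold of St8sia4. These were Cldn5 (3.69-fold) and Emcn (2.18-fold) among endothelial markers, and Kcnj8 (4.66-fold), Rgs5 (2.50-fold) and Abcc9 (2.29-fold) among smooth muscle and pericyte markers. The remaining markers of these lists differed by less than St8sia4. The part of these cell types in the St8sia4 value was not tested. The 7 adipocyte markers were each at least 2-fold higher as deposited, and 6 relative to the median gene, with Adipoq (adiponectin) at 40.4 FPKM in KO and 3.91 FPKM in WT. Of 7 epidermal markers 3 had a mean of at least 1 FPKM (Krt5, Krt14 and Krt17), and these were at least 2-fold higher, with Krt5, a basal keratin, at 18.9 FPKM in KO and 0.212 FPKM in WT. Of the other 4, Krt15 and Krt1 were lower in KO. Krt10 and Trp63 were higher as deposited and, with the pseudocount of 1, below the median gene. Without a pseudocount Trp63 was 1.52-fold and Krt10 1.34-fold higher, beside 1.42-fold for the median gene. Among differentiated muscle markers, Myog was at 1.44 FPKM in KO and 2.56 FPKM in WT, and the list's median was -0.04.

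Genes around polysialic acid had list medians close to that of all genes. Over 8 lists with 97 distinct genes, 5 of them in more than 1 list, 77 had a mean of at least 1 FPKM. By the log2 ratio with its pseudocount, 1 of them was at least 2-fold lower, against 0.689% of all genes, and 1 higher, against 5.06%. Their median log2 ratio was 0.53, beside 0.42 over all genes. After centring on the median gene, 2 passed that limit downwards, against 1.45%, and 0 upwards, against 1.35%. The lists were drawn up with earlier results of these libraries known.

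Sialic acid supply genes make CMP-sialic acid, the donor that every sialyltransferase uses, and clear sialic acid. Of 8, 7 had a mean of at least 1 FPKM, and their median log2 ratio was 0.57. Nans, the sialic acid synthase, was at 28.4 FPKM in KO and 19.1 FPKM in WT, and Gne, the enzyme that starts the pathway, at 5.06 FPKM in KO and 3.45 FPKM in WT. Cmas, which activates sialic acid, was at 16.7 FPKM in KO and 9.22 FPKM in WT. Renbp, an N-acetylglucosamine epimerase, was the 1 member at least 2-fold higher as deposited, at 9.65 FPKM in KO and 3.20 FPKM in WT, with a log2 ratio of 1.34, or 0.92 relative to the median gene. Of the sialidases, which remove sialic acid, and their protective protein, 3 of 5 passed that level with a median of 0.45 and none past 2-fold. Ctsa, the protective protein, was at 31.0 FPKM in KO and 20.7 FPKM in WT, and Neu1, the lysosomal sialidase, at 3.77 FPKM in KO and 2.50 FPKM in WT.

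The other sialyltransferases, which add single sialic acids in other linkages, had a median log2 ratio of 0.44. This covered the 10 of 14 with a mean of at least 1 FPKM, and none passed 2-fold with the pseudocount of 1. St6gal1, which caps N-glycans, was at 6.92 FPKM in KO and 3.45 FPKM in WT, 2.005-fold higher without a pseudocount. St3gal6 was at 3.58 FPKM in KO and 2.07 FPKM in WT, and St3gal1, the most abundant, at 18.6 FPKM in KO and 22.1 FPKM in WT. St6gal2 was at the lowest listed value in KO and at 0.0680 FPKM in WT. Ganglioside genes, which make and degrade the substrates of St8sia1 and St8sia5, had a median of 0.50 over 15 of 15. With the pseudocount, none of these ganglioside genes passed 2-fold. Among them Hexa, a lysosomal hexosaminidase gene, was at 30.6 FPKM in KO and 16.0 FPKM in WT. Psap, a precursor of sphingolipid activators, was at 233 FPKM in KO and 137 FPKM in WT. B3galt4 of the same list was at 1.82 FPKM in KO and 0.797 FPKM in WT, 2.28-fold higher without a pseudocount. Genes of N-glycan branching, which shape the antennae that carry polysialic acid, had a median of 0.63 over 9 of 10. With the pseudocount, none of these branching genes passed 2-fold. Mgat4b, a branching enzyme, was at 39.3 FPKM in KO and 22.7 FPKM in WT, and B4galt1 at 16.0 FPKM in KO and 8.78 FPKM in WT. Mgat4a, whose locus entry is shared with a clone row, was at 3.24 FPKM in KO and 1.44 FPKM in WT. Without a pseudocount Mgat4a was 2.25-fold higher.

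Other proteins known to carry polysialic acid were mixed. Nrp2, a semaphorin receptor, was at 21.5 FPKM in KO and 13.5 FPKM in WT, and Cadm1 (SynCAM 1) at 11.9 FPKM in KO and 7.32 FPKM in WT. Each had a log2 ratio of 0.63, or 0.21 relative to the median gene. Ccr7, a chemokine receptor, had a mean under 1 FPKM and stood at 0.448 FPKM in KO and 1.18 FPKM in WT. Selplg, a selectin ligand of leukocytes, was likewise under that mean, at 0.525 FPKM in KO and 1.07 FPKM in WT.

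Among 19 genes of NCAM binding partners and signalling, 16 had a mean of at least 1 FPKM, and the median was 0.54. Of these, 13 were higher by any amount as deposited, as were 88.6% of all genes. With the pseudocount, 1 was at least 2-fold lower and none was at least 2-fold higher. The lower one was Fgfr4, an FGF receptor of myoblasts, at 0.526 FPKM in KO and 6.76 FPKM in WT, with a log2 ratio of -2.35. Fgfr2 was at 1.60 FPKM in KO and 0.498 FPKM in WT. It was 3.22-fold higher without a pseudocount, and its log2 ratio with the pseudocount was 0.80. Fgfr1, the FGF receptor through which NCAM is known to signal, was at 36.0 FPKM in KO and 24.2 FPKM in WT. Fyn, a kinase downstream of NCAM, was at 24.0 FPKM in KO and 13.5 FPKM in WT. Gfra1, a GDNF receptor that binds NCAM, was at 12.1 FPKM in KO and 6.93 FPKM in WT, and Prnp, the prion protein, at 55.3 FPKM in KO and 27.7 FPKM in WT. Sptbn1, a spectrin that links NCAM to the cytoskeleton and is listed under its older symbol, had the highest mean of the list, at 55.0 FPKM in KO and 38.1 FPKM in WT.

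Of 27 other immunoglobulin superfamily adhesion genes, 20 had a mean of at least 1 FPKM and none was past 2-fold as deposited, with a median of 0.52. Cdon, a co-receptor that promotes myogenic differentiation, was at 3.97 FPKM in KO and 7.51 FPKM in WT, with a log2 ratio of -0.78, and was the 1 member at least 2-fold lower relative to the median gene, at -1.20. L1cam and Nrcam, relatives of NCAM on nerve and glia, were at 7.94 and 5.47 FPKM in KO, and at 5.05 and 3.50 FPKM in WT. Vcam1, a ligand for integrins on satellite cells, was at 12.0 FPKM in KO and 15.9 FPKM in WT. Alcam was at 7.42 FPKM in KO and 5.56 FPKM in WT.

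**Figure D5:**
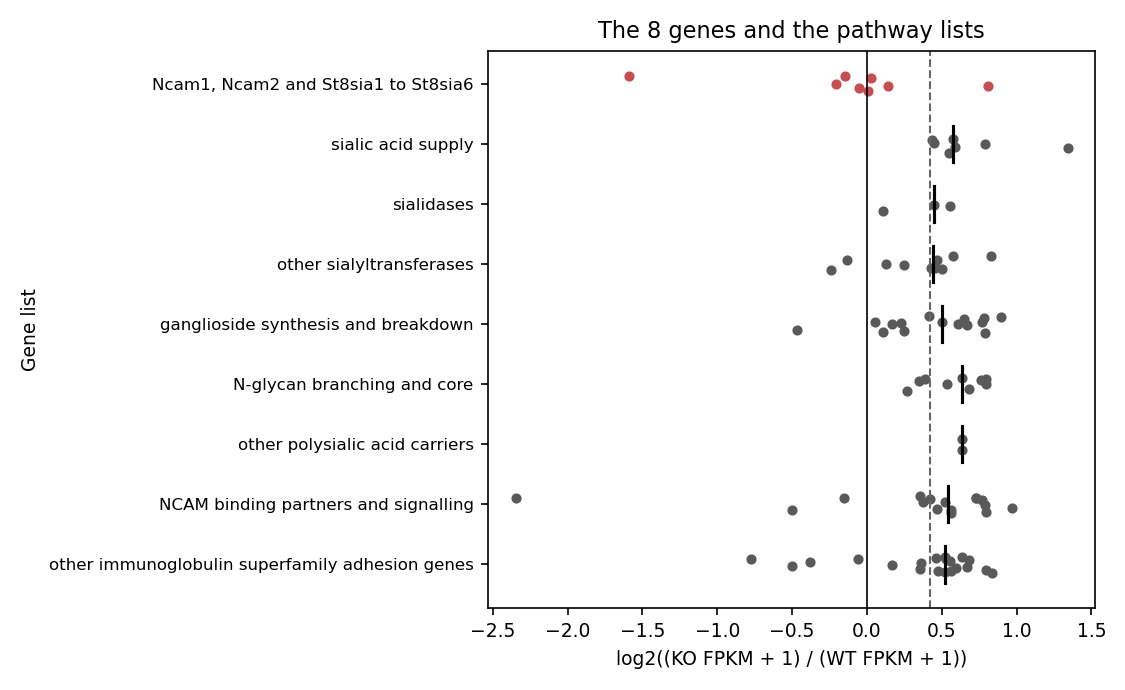
Log2 ratio (pseudocount of 1) of the 8 genes (top row, red) and of the genes with a mean of at least 1 FPKM in each of 8 pathway lists (grey points), with black bars at the list medians, a solid line at 0 and a dashed line at the median gene (0.42). List medians lie between 0.44 and 0.63, while St8sia2 at -1.59 and Fgfr4 at -2.35 lie farthest to the left.

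The genes whose levels were most like those of St8sia2 were found by the distance in log2(FPKM + 1) over the 2 libraries. The search covered 10684 of the 11751 genes with a mean of at least 1 FPKM. Predicted genes, clones, pseudogenes and small RNAs were left out by their names. Among the 5 closest were Rbm24, a muscle splicing regulator, at a distance of 0.25, Hist1h4f, a histone H4 gene, at 0.27, and Pitx3, a homeobox factor, at 0.35. Rbm24 was at 1.21 FPKM in KO and 4.30 FPKM in WT. Pitx3 shares its locus entry with Elovl3. The closest to Ncam1 were Kcnq1ot1, Ube2t, Trip13, Cx3cr1 and Cldn12, at distances of 0.02 to 0.05. With 2 libraries, a short distance means only a like level in each.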

How the data were processed

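PolyA RNA-seq of 1 Pax7 KO and 1 WT library was analysed. Per the file headers, the authors deposited FPKM, with 1 column per genotype, and 2 lists of called genes with a fold, the ratio of KO to WT FPKM. The sources used here do not state the rule behind the lists. The genome build mm9 and the tools Cuffdiff 2.1.1, Cufflinks 2.1.1 and TopHat2 2.0.9 come from the submitters' processing notes, which give them no role here. Coordinates are those of the table, with 1 added to starts. The lowest listed value was 0.001 FPKM.

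The 8 members, the 8 pathway lists and the 10 marker lists were chosen with earlier results of these data known. Rows of 1 repeated symbol were summed. Log2 ratios used a pseudocount of 1 FPKM, which understates differences of low genes, and were also centred on the median gene. The 2-fold limit is a log2 ratio of 1 in size.

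Depth was read from the values. Among 5441 genes under a mean of 0.3 FPKM, 360 shared a KO to WT ratio of 1.198, the worth of 1 fragment in KO over WT. Among 76 of them with 1 GENCODE M21 transcript, FPKM times length fell near multiples of 0.0389 in WT (mean cosine 0.70, where 1 is exact), or about 21500000 fragments in KO and 25700000 in WT, if no scaling factor had been applied. Fragments used the shortest annotated transcript. Exact (Clopper-Pearson) intervals, and a conditional exact interval for the ratio of ratios, cover counting error only. The scripts were tested on simulated data.

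Named genes were all members; of each list, those past 2-fold, or the 2 with the largest log2 ratio, and the most abundant; the markers standing first in their lists; and the 5 genes closest to St8sia2 and to Ncam1. Some genes that this rule names are not reported here. The other list genes with values, the genes used as divisors and those sharing a locus entry were chosen after their values were seen. Versions were scipy 1.17.1, pandas 2.3.3, numpy 2.4.6 and matplotlib 3.10.9 under Python 3.11.15. The alternatives were other pseudocounts, upper-quartile scaling, other filters and a 1.5-fold limit.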

Additional observations from a re-analysis of the deposited data

How the results depend on the processing

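St8sia2 was lower in KO and St8sia4 higher under all 5 alternatives of pseudocount and scaling, and Ncam1 was lower. With a pseudocount of 0.1 and with none, the log2 ratio of St8sia2 was -2.19 and -2.30, and that of St8sia4 1.02 and 1.06. Relative to the median gene and with upper-quartile scaling, St8sia2 was at -2.01 and -2.03, St8sia4 at 0.39 and 0.44, and Ncam1 at -0.63 and -0.67. St8sia1, St8sia5 and St8sia6 were above 0 as deposited and, with a pseudocount of 1, below 0 relative to the median gene. Without a pseudocount St8sia1 and St8sia5 were still below the median gene, at -0.49 and -0.24 relative to it, and St8sia6 was level with it. The log2 ratio of St8sia4 over St8sia2, 3.35 without a pseudocount, was 2.79 with 0.5 and 2.40 with 1, alternatives chosen after seeing the data. Members at least 2-fold higher numbered 1 (St8sia4) with a pseudocount of 0.1, where 1104 genes were, and with none, where 10.2% of genes were. At a 1.5-fold limit St8sia4 again counted as higher, as did 30.0% of genes. Members at least 2-fold lower numbered 0 at a mean of 5 FPKM or more, because St8sia2 has a mean of 3.13 FPKM. At a 1.5-fold limit relative to the median gene, 2 members (St8sia2 and Ncam1) counted as lower, as did 6.20% of genes. That limit was also chosen after seeing the data. Genes at least 2-fold lower, 81 as reported, numbered 32 at a mean of 5 FPKM or more, 170 relative to the median gene and 174 with upper-quartile scaling. Genes at least 2-fold higher, 595 as reported, numbered 159 relative to the median gene, 176 with upper-quartile scaling and 1104 with a pseudocount of 0.1. Of 32 alternative values of the list medians, 9 moved by more than the spread between a list's genes. No paired analysis was possible because each genotype has 1 library, which also left no replicate to leave out. Depth limits St8sia3 and St8sia5 most.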
